A study of Mus musculus with 18 samples.

Results

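The BMP and TGF-beta pathway genes are a set of 51 genes listed by their known role in these signalling pathways. They comprise ligands, latent TGF-beta binding proteins, receptors, secreted antagonists, Smad proteins, inhibitors and the Id target genes. Of the 51 genes, 37 could be measured in RNA of the subventricular zone (SVZ), the neurogenic wall of the lateral ventricle in the adult mouse brain, among 11465 genes measured in all. A gene was counted as measured where a probe assigned to its symbol alone was detected above negative control beads (detection p under 0.05) on at least 9 of 18 arrays, and its brightest such probe stood for it.

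Tam-Idh1-KI mice carry a conditional knockin of the *Idh1* R132H mutation at the endogenous locus, which is switched on by a tamoxifen-inducible Cre under nestin control (Nes-CreER(T2)). Control mice were *Idh1* wild-type littermates with or without the Cre transgene. Both groups are c57bl6 and both received tamoxifen at 50 mg/kg for 5 days at 5 to 6 weeks of age, so that the drug is common to all animals. RNA of 9 Tam-Idh1-KI and 9 control SVZs was hybridised to Illumina Mouse WG6-v2 bead arrays, 1 mouse per array, on 2 days, with 6 mice per group on day 1 and 3 per group on day 2. Mice of day 1 were 5 to 6 months old and mice of day 2 were 7 to 9 months old, so that hybridisation day and age cannot be told apart. There were 5 females and 4 males with the knockin, all 3 mice of its day 2 being female, and 3 females and 6 males among the controls. The model has limits as a test of the mutation: nestin is active in several SVZ cell types, the floxed allele is known to leak without Cre, and the dissected tissue can hold cells that did not recombine. An expression probe does not read the R132H base, and the genotype labels were therefore not checked by these data.

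BMPs and TGF-betas are secreted dimers that bring a type II and a type I serine-threonine kinase receptor together at the cell surface. The type I receptor then phosphorylates the receptor-regulated Smads, Smad1, Smad5 and Smad9 for BMPs and Smad2 and Smad3 for TGF-betas and activins, which enter the nucleus with Smad4. In the adult SVZ, BMP signals favour glial fate and stem cell quiescence, the antagonist noggin made by ependymal cells opposes them, and the Id genes, which encode inhibitors of basic helix-loop-helix factors, are among the best known BMP targets.

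The mean bead signal lay between 460 and 905 on the Tam-Idh1-KI arrays and between 454 and 679 on the control arrays, with 46.3% to 50.7% of probes detected on Tam-Idh1-KI and 44.6% to 50.9% on control arrays. Values of 2 arrays correlated at 0.920 to 0.990 across the genes tested, and the number of arrays limits the precision of every difference below. Of the listed markers 12 of 12 for astrocytes and stem cells and 12 of 15 for ependymal cells were measured. For transit amplifying cells and neuroblasts it was 8 of 10. The same held for 9 of 10 markers of striatal and other neurons, 10 of 11 endothelial and 8 of 10 microglial markers. Fewer were measured for choroid plexus (7 of 12) and meningeal or fibroblast-like cells (5 of 11). Being measured therefore does not set the SVZ apart from neighbouring tissue. In bulk SVZ tissue, fewer cells of a type and less RNA per cell cannot be told apart.

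None of the 37 measured genes passed an adjusted p of 0.05 between Tam-Idh1-KI and control SVZ by limma, in a fit of genotype, hybridisation day and sex with Benjamini-Hochberg adjustment over all 11465 genes. The same fit called 20 of all genes (0.174%), 11 higher and 9 lower in Tam-Idh1-KI (16 and 7 with median scaling, 6 and 8 with cyclic loess). This count was 9 with the replicate number as a block and 4 to 39 when 1 array was left out. At an unadjusted p under 0.05 stood 3 of the 37 genes (8.11%), against 9.58% of all genes. By the methods' t-test, unpaired and without covariates, 0 of the 37 passed after Benjamini-Hochberg adjustment and 2 had an unadjusted p under 0.05, against 3 and 4.69% of all genes. The paper names this test as its general default, with nominal p values. For the arrays it reports gene set enrichment analysis, which was not repeated here. The 3 genes of the limma fit were *Id1*, *Tgfbr2* and *Id3*, all higher in Tam-Idh1-KI; in that direction the share of all genes was 6.44%. The count of 3 became 5 without Tam-Idh1-KI replicate 1, without Tam-Idh1-KI replicate 6 or without control replicate 9. It became 2, with *Id3* no longer counted, without Tam-Idh1-KI replicate 3, 4, 7 or 9 and without control replicate 5, 7 or 8.

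As a list, 24 of the 37 genes (64.9%) had a log2 fold change above 0, against 54.4% of all genes, or 32 with median scaling, which lifts the median of all genes to 0.12. The median log2 fold change was 0.05 beside 0.01 over all genes. Without control replicate 2 it was 0.01 beside 0.02 over all genes, with 20 of the 37 above 0. Differences ran between -0.53 for *Bmp3* and 0.34 for *Tgfbr2*. In 28 of the 37 genes (75.7%) the 95% interval of the log2 fold change lay within 0.5 of 0, as it did in 81.2% of all genes. *Bmp3* was the only measured member whose interval reached beyond 1 in either direction. The values of the groups of 9 did not separate in any measured member, while they did in 0.0349% of all genes, or in 0.0872% after centring each gene on the hybridisation day.

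**Figure D1:**
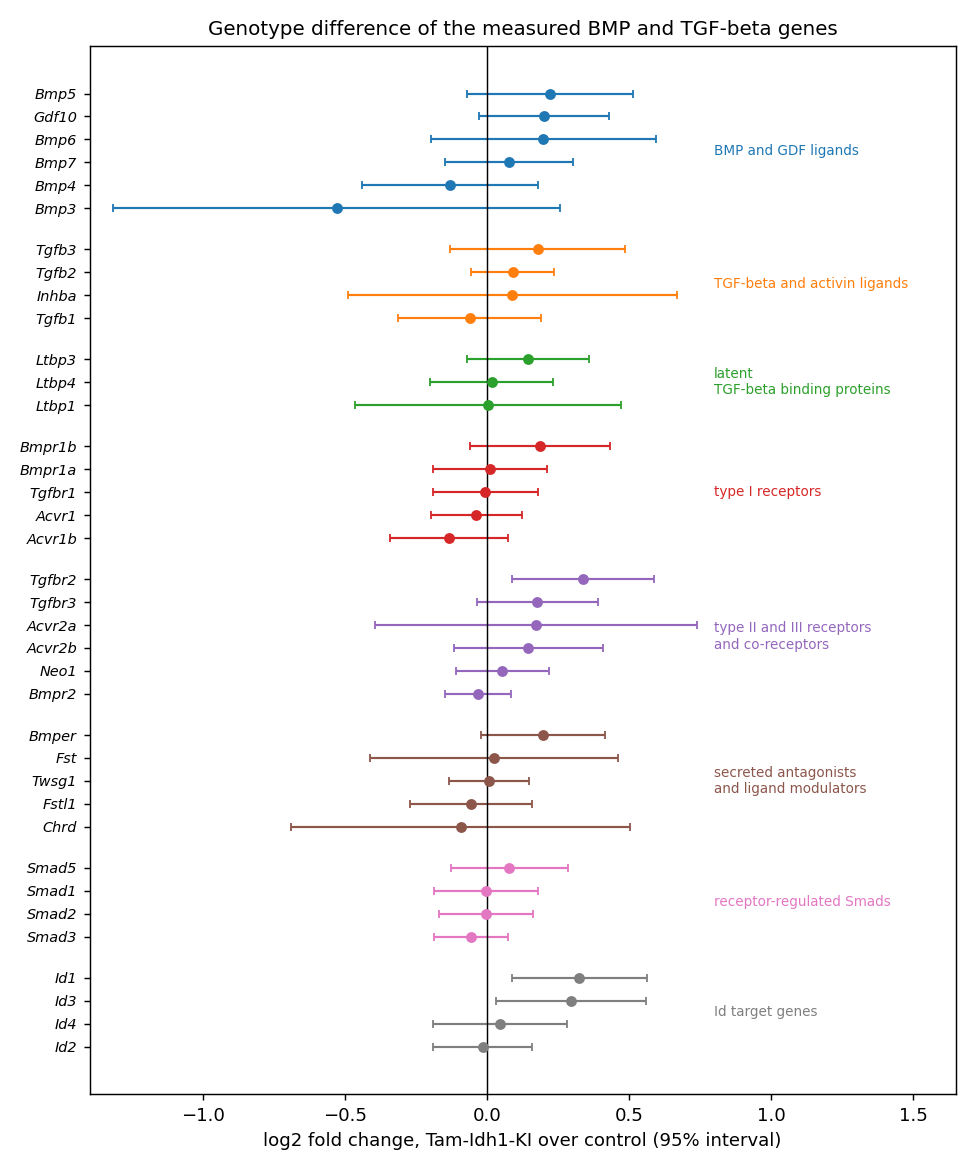
Log2 fold change of Tam-Idh1-KI over control (x axis) with its 95% interval for each of the 37 measured genes (rows), coloured and grouped by role. Intervals leave 0 only for Tgfbr2 (0.09 to 0.59), Id1 (0.09 to 0.56) and Id3 (0.03 to 0.56), before any adjustment for the number of genes tested.

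The Id genes are in the set as known targets of BMPs, and signalling itself was not measured. The regions just upstream of their starts are shown because 2 of the 3 members with the smallest p are Id genes. Printed are the 250 bases before the start of *Id3*, *Id2* and *Id4* and, beside them, of the receptor gene *Tgfbr2*, from RefSeq on build GRCm38.p6. No window was available for *Id1*, the member with the smallest p, which is therefore not printed. Capitals mark matches, on either strand, to GGCGCC, the core of a BMP response element, to GGAGCC, a related GC-rich element, and to CAGAC, the Smad-binding element; adjoining matches run together.
Id3, chr4:136143572-136143821, plus strand: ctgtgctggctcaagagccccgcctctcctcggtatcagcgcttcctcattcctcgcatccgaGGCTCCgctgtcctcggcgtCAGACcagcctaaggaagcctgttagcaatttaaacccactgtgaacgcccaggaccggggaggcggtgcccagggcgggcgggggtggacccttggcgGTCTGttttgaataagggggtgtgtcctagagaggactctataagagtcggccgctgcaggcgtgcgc
Id2, chr12:25096093-25096342, minus strand: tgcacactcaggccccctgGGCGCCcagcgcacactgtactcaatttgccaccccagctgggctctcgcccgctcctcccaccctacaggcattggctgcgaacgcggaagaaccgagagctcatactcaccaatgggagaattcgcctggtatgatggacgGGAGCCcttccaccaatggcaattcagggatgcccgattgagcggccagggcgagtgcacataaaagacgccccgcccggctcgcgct
Id4, chr13:48260866-48261115, plus strand: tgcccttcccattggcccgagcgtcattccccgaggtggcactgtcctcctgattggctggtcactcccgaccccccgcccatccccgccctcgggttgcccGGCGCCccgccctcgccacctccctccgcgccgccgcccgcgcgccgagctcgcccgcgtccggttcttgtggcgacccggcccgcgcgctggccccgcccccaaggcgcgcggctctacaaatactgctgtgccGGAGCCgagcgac
Tgfbr2, chr9:116175364-116175613, minus strand: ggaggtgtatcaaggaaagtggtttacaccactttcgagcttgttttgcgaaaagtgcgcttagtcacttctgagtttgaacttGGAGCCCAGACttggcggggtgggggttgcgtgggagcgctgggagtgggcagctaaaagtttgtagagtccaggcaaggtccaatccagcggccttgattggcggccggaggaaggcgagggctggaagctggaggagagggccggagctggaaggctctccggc

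*Id3* held 1 match to GGAGCC and 2 to CAGAC, *Id2* and *Id4* each held 1 to GGCGCC and 1 to GGAGCC, and *Tgfbr2* held 1 to GGAGCC directly beside 1 to CAGAC. Among all 32851 upstream windows of this length in the table, 9.6% held GGCGCC, 26.0% GGAGCC and 42.2% CAGAC. Among the 30 measured members with a window, the shares were 23.3%, 60.0% and 40.0%. The windows were not matched for base composition, which was 62.8% G and C for *Id3* and *Id2*, 75.6% for *Id4* and 58.4% for *Tgfbr2*. A match is a description of these letters and not a bound site.

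*Id1* had the smallest p of the set. Its log2 signal was 8.62, 8.72 and 8.88 (lowest, median, highest) in Tam-Idh1-KI SVZ and 7.88, 8.58 and 9.02 in control SVZ. The Tam-Idh1-KI mice lay within a narrow band inside the range of the controls: 8 controls fell below every Tam-Idh1-KI mouse, some of them only just, and control replicate 6 lay above them all. This gave a log2 fold change of 0.32 (SE 0.11), or 1.25-fold with a 95% interval of 1.06 to 1.48 (limma, unadjusted p = 0.0101, adjusted p = 0.333). Each of the 9 Tam-Idh1-KI mice was above the control mean of its own hybridisation day. The difference was 0.24 without control replicate 2, the lowest control, and 0.39 without control replicate 6, the highest. Control replicate 4 was also low, at 7.99 beside 7.88 for replicate 2, and the next control was at 8.43. Leaving out both low controls was not tested. Within days the SD was 0.36 in control and 0.11 in Tam-Idh1-KI SVZ, while the fit takes the same variance for both groups.

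*Id3* had a log2 signal of 8.14, 8.67 and 9.26 in Tam-Idh1-KI SVZ and 7.70, 8.54 and 9.01 in control SVZ. The groups overlapped over most of their range, and the lowest values of both were those of day 2. Its log2 fold change was 0.29 (SE 0.13), a 1.23-fold difference with a 95% interval of 1.02 to 1.47 (limma, unadjusted p = 0.0312, adjusted p = 0.472), with 8 of 9 Tam-Idh1-KI mice above the control mean of their day. Without Tam-Idh1-KI replicate 3, the mouse with the highest value, it was 0.23 with an unadjusted p of 0.0825 by limma.

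The other two Id genes stood near 0. *Id2* had a log2 fold change of -0.02 (SE 0.08) and *Id4* of 0.05 (SE 0.11). The kept probes of both genes gave differences of either sign, between -0.02 and 0.07 for *Id2* and between -0.07 and 0.05 for *Id4*. The 95% intervals were -0.19 to 0.16 for *Id2* and -0.19 to 0.28 for *Id4*, and those of *Id1* and *Id3* overlap them; differences between Id genes were not tested.

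**Figure D2:**
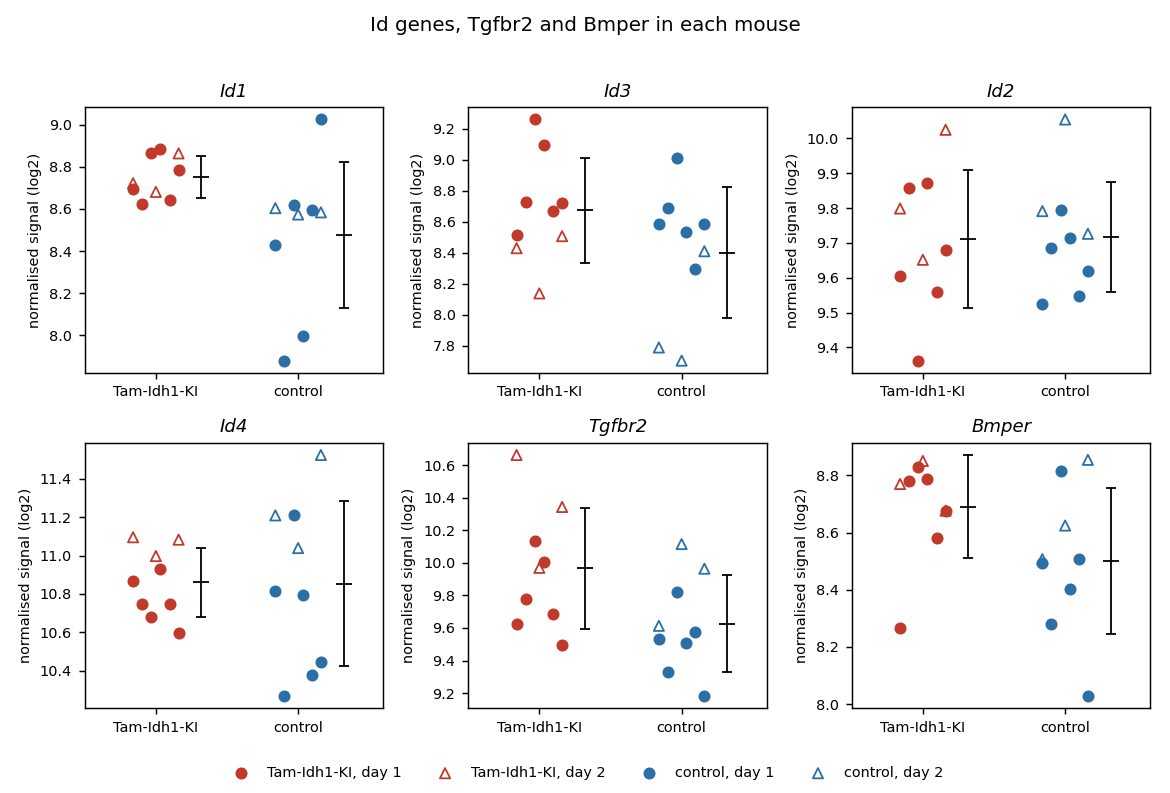
Normalised log2 signal (y axis) of the Id genes, Tgfbr2 and Bmper in each mouse, Tam-Idh1-KI left and control right; filled circles are day 1, open triangles day 2, and bars give the mean and SD of the 9 mice. The Tam-Idh1-KI values of Id1 span 8.62 to 8.88, inside the control range of 7.88 to 9.02, and day 2 mice are high for Tgfbr2 and low for Id3.

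Among the type II and type III receptors and co-receptors, 6 of 6 were measured and 5 had a positive difference. *Tgfbr2* encodes the type II receptor that binds TGF-beta. Its log2 signal was 9.50, 9.97 and 10.66 in Tam-Idh1-KI SVZ and 9.18, 9.57 and 10.12 in control SVZ, and the groups overlapped between 9.50 and 10.12. Its log2 fold change was 0.34 (SE 0.12), a 1.26-fold difference with a 95% interval of 1.06 to 1.50 (limma, unadjusted p = 0.0114, adjusted p = 0.348). All 9 Tam-Idh1-KI mice were above the control mean of their day. *Id1* and *Tgfbr2* were the only measured members with all 9 mice on the same side (5.41%), which 3.11% of all genes showed.

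*Tgfbr3* encodes betaglycan, the co-receptor that presents TGF-beta to its type II receptor. It had a log2 signal of 7.61, 8.11 and 8.74 in Tam-Idh1-KI SVZ and 7.53, 7.96 and 8.13 in control SVZ. The group medians differed less than the values within either group did, and 8 of 9 Tam-Idh1-KI mice lay above the control mean of their day. Its log2 fold change of 0.18 (SE 0.10) did not pass (limma, unadjusted p = 0.0998, adjusted p = 0.635). The activin type II receptor genes *Acvr2b* and *Acvr2a* had log2 fold changes of 0.15 (SE 0.13) and 0.17 (SE 0.27), *Neo1*, the gene of the netrin and repulsive guidance molecule receptor neogenin, of 0.05 (SE 0.08), and *Bmpr2*, the BMP type II receptor gene, of -0.03 (SE 0.06). For *Bmpr2* the 95% interval of its brightest probe was -0.15 to 0.09, among the narrowest of the set. Its other kept probes gave -0.05 (SE 0.15) and -0.26 (SE 0.20).

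In total 6 genes (*Acvr2b*, *Tgfbr2*, *Tgfbr3*, *Bmper*, *Id1* and *Id3*) had 8 or 9 Tam-Idh1-KI mice above the control mean of the day. They make up 16.2% of the measured members, and 9.31% of all genes met the same count.

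All 5 type I receptors were measured, 2 with positive and 3 with negative differences. *Bmpr1b* encodes a BMP type I receptor and had a log2 signal of 8.77, 9.21 and 9.90 in Tam-Idh1-KI SVZ and 8.35, 8.99 and 9.95 in control SVZ. The ranges nearly coincided, and the mice of day 2 held the highest values of both groups. Between genotypes the log2 fold change was 0.19 (SE 0.12; limma, unadjusted p = 0.127, adjusted p = 0.682). Without a term for sex, the group means differed by 0.31 on day 1 and by -0.11 on day 2. The other kept probe of the gene, also detected on all 18 arrays, gave 0.09 (SE 0.13).

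*Acvr1b*, the gene of the activin type I receptor, had 7.91, 8.51 and 8.83 in Tam-Idh1-KI SVZ and 8.00, 8.52 and 9.03 in control SVZ. The medians of the groups were almost the same. A log2 fold change of -0.13 was left (SE 0.10; limma, unadjusted p = 0.189, adjusted p = 0.746), and 3 of 9 Tam-Idh1-KI mice lay above the control mean of their day. The TGF-beta type I receptor gene *Tgfbr1* stood at -0.01 (SE 0.09), and its other kept probe gave 0.22 (SE 0.17).

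*Bmpr1a*, a second BMP type I receptor gene, had a log2 signal of 8.55, 8.83 and 10.12 in Tam-Idh1-KI SVZ and 8.49, 8.92 and 10.11 in control SVZ, with a log2 fold change of 0.01 (SE 0.09; limma, unadjusted p = 0.921, adjusted p = 0.993). *Acvr1*, which encodes a type I receptor for BMPs and activins, had 8.99, 9.34 and 10.001 in Tam-Idh1-KI SVZ and 9.07, 9.25 and 9.985 in control SVZ, with a log2 fold change of -0.04 (SE 0.08; limma, unadjusted p = 0.630, adjusted p = 0.943). In both genes the ranges of the groups coincided and most of the spread lay between the hybridisation days.

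Of the BMP and GDF ligands 6 of 8 were measured, 4 with positive and 2 with negative differences. *Bmp3*, the gene of an atypical BMP that opposes other BMPs, showed the largest absolute difference of the 37 genes and the widest error. Its log2 signal was 4.46, 5.32 and 7.51 in Tam-Idh1-KI SVZ and 5.39, 6.13 and 7.37 in control SVZ. Of the Tam-Idh1-KI mice, 5 were below every control, while Tam-Idh1-KI replicate 6 was above them all, and the probe was detected in 6 of 9 Tam-Idh1-KI and 9 of 9 control mice. Over both days the log2 fold change was -0.53 (SE 0.37; limma, unadjusted p = 0.175, adjusted p = 0.737). It was -0.15 on day 1 and -1.35 on day 2, a gap of -1.29 (SE 0.78) as an interaction term adjusted for sex (limma, unadjusted p = 0.120, adjusted p = 1.00). Without Tam-Idh1-KI replicate 6 the log2 fold change was -0.83, with an adjusted p of 0.296 by limma. Without Tam-Idh1-KI replicate 1 it was -0.31, with an unadjusted p of 0.403 by limma.

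*Bmp5* encodes a BMP of the same subgroup as *Bmp6* and *Bmp7*. Its log2 signal was 5.00, 5.50 and 5.68 in Tam-Idh1-KI SVZ and 4.59, 5.19 and 5.71 in control SVZ, in a probe detected in 7 of 9 Tam-Idh1-KI and 4 of 9 control mice. These values lie close to the detection limit and the groups overlapped widely. The log2 fold change was 0.22 (SE 0.14; limma, unadjusted p = 0.129, adjusted p = 0.684), and 0.07 without background correction.

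*Gdf10*, whose product is also known as BMP3b, had a log2 signal of 7.53, 8.29 and 8.74 in Tam-Idh1-KI SVZ and 7.69, 7.84 and 8.49 in control SVZ. The 6 controls of day 1 sat between 7.69 and 7.84, and the Tam-Idh1-KI mice of that day ranged from 7.53 to 8.42 around them. The log2 fold change was 0.20 (SE 0.11; limma, unadjusted p = 0.0843, adjusted p = 0.610). Leaving out Tam-Idh1-KI replicate 4 gave 0.13, with an unadjusted p of 0.230 by limma. The remaining ligands of this group had log2 fold changes of 0.20 (SE 0.19) for *Bmp6*, 0.08 (SE 0.11) for *Bmp7* and -0.13 (SE 0.15) for *Bmp4*, the ligand best known for driving glial fate in the SVZ.

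**Figure D3:**
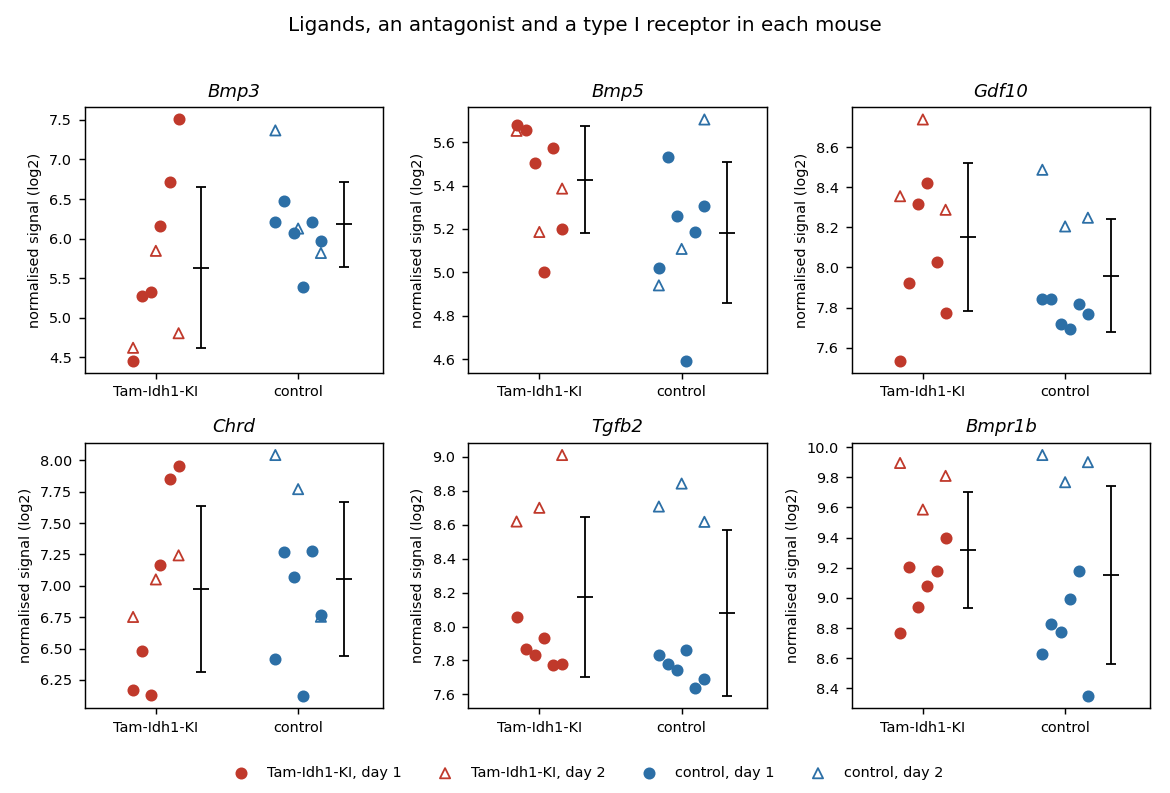
Normalised log2 signal (y axis) of the ligand genes Bmp3, Bmp5, Gdf10 and Tgfb2, the antagonist gene Chrd and the receptor gene Bmpr1b in each mouse, Tam-Idh1-KI left and control right, with day 1 as filled circles, day 2 as open triangles and bars for the mean and SD of the 9 mice. Bmp3 spreads from 4.46 to 7.51 in Tam-Idh1-KI, and the days separate for Tgfb2 in both groups.

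Of the TGF-beta and activin ligands 4 of 5 were measured, 3 with positive differences. *Tgfb3* had a log2 signal of 6.70, 7.20 and 7.48 in Tam-Idh1-KI SVZ and 6.37, 7.08 and 7.41 in control SVZ, overlapping over most of the range. Its log2 fold change was 0.18 (SE 0.15; limma, unadjusted p = 0.239, adjusted p = 0.791). *Tgfb2* had 7.77, 7.93 and 9.01 in Tam-Idh1-KI SVZ and 7.64, 7.83 and 8.84 in control SVZ. In *Tgfb2* the mice of day 2 stood apart from those of day 1 in both groups, and the log2 fold change between genotypes was 0.09 (SE 0.07; limma, unadjusted p = 0.207, adjusted p = 0.765). *Tgfb1* stood at -0.06 (SE 0.12) and *Inhba*, the gene of the activin A subunit, at 0.09 (SE 0.28). Control values of *Inhba* alone ran from 9.55 to 11.77.

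The latent TGF-beta binding proteins hold the inactive cytokine in the extracellular matrix, and 3 of 4 were measured. *Ltbp3* had a log2 signal of 8.97, 9.24 and 9.53 in Tam-Idh1-KI SVZ and 8.77, 9.14 and 9.53 in control SVZ, with overlapping groups. Its log2 fold change was 0.14 (SE 0.10; limma, unadjusted p = 0.177, adjusted p = 0.739), but its 3 kept probes disagreed, at 0.14, 0.06 and -0.14, and their mean gave 0.02. *Ltbp4* had 7.30, 8.51 and 8.86 in Tam-Idh1-KI SVZ and 7.30, 8.40 and 8.88 in control SVZ, with a log2 fold change of 0.02 (SE 0.10; limma, unadjusted p = 0.881, adjusted p = 0.987). The ranges of *Ltbp4* were nearly identical, and *Ltbp1* stood at 0.00 (SE 0.22).

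Of the secreted antagonists and ligand modulators 5 of 8 were measured, 3 with positive and 2 with negative differences. *Bmper*, the gene of a chordin-like protein that binds BMPs outside the cell, had a log2 signal of 8.27, 8.77 and 8.85 in Tam-Idh1-KI SVZ and 8.03, 8.51 and 8.85 in control SVZ. Tam-Idh1-KI replicate 1 lay well below the other 8 mice of its group, which sat in the upper part of the control range. The log2 fold change was 0.20 (SE 0.10; limma, unadjusted p = 0.0726, adjusted p = 0.585). *Chrd*, the gene of the BMP antagonist chordin, stood at -0.09 (SE 0.28), with log2 signals from 6.13 to 7.95 in Tam-Idh1-KI and from 6.12 to 8.04 in control SVZ. The highest Tam-Idh1-KI value of *Chrd* was that of replicate 6 and the highest control value that of replicate 7, as they were for *Bmp3*. The activin antagonist gene *Fst* was at 0.02 (SE 0.21), *Fstl1* at -0.06 (SE 0.10) and the chordin cofactor gene *Twsg1* at 0.01 (SE 0.07).

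Of the receptor-regulated Smads and *Smad4* 4 of 6 genes were measured, and these carried some of the smallest differences of the set. *Smad5* had a log2 signal of 8.90, 9.00 and 9.36 in Tam-Idh1-KI SVZ and 8.72, 9.00 and 9.25 in control SVZ. Its medians were the same at this rounding and its log2 fold change was 0.08 (SE 0.10; limma, unadjusted p = 0.432, adjusted p = 0.884). Its group means differed by 0.00 on day 1 and by 0.26 on day 2. *Smad3* had 10.49, 10.63 and 11.59 in Tam-Idh1-KI SVZ and 10.56, 10.77 and 11.59 in control SVZ, with a log2 fold change of -0.06 (SE 0.06; limma, unadjusted p = 0.373, adjusted p = 0.869). *Smad1* had 9.20, 9.44 and 9.96 in Tam-Idh1-KI SVZ and 9.08, 9.43 and 10.23 in control SVZ, with a log2 fold change of 0.00 to 2 decimals (SE 0.09; limma, unadjusted p = 0.964, adjusted p = 0.999). The groups overlapped on both days for *Smad3*. For *Smad1* they overlapped on day 1, while on day 2 it was 9.77 to 9.96 in Tam-Idh1-KI and 10.06 to 10.23 in control SVZ, a difference of -0.23. The 3 kept probes of *Smad1* gave 0.00, 0.04 and 0.20. *Smad2* stood at 0.00 (SE 0.08).

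The remaining 14 of the 51 genes gave no value in the comparison. No probe was assigned to *Inhbb*, *Smad4* or *Smurf2* alone. Probes of 11 others fell below the detection rule, 7 of them (*Bmp2*, *Gdf11*, *Ltbp2*, *Chrdl1*, *Grem1*, *Smad7* and *Bambi*) on every array and 4 on most. Of those 4, *Nog*, the gene of noggin, was detected in 2 of 9 Tam-Idh1-KI and 4 of 9 control mice, and *Smad9* in 3 of 9 Tam-Idh1-KI and 5 of 9 control mice. *Smad6* was detected in 2 of 9 Tam-Idh1-KI and 3 of 9 control mice, and the most often detected probe of *Smurf1* in 2 of 9 Tam-Idh1-KI and 4 of 9 control mice. The intracellular and membrane inhibitors were thus not measured at all as a group. Without the detection rule *Nog* had a log2 fold change of -0.37 (SE 0.18) with an unadjusted p of 0.0479 and an adjusted p of 0.709 over all probes by limma, in log2 signals of 4.77 to 5.32 in Tam-Idh1-KI and 4.85 to 6.34 in control SVZ, most of which are not above background. Not being detected by a probe does not show that a transcript is absent.

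The medians of the 8 roles with a measured member lay between -0.01 and 0.17. The median log2 fold change was 0.17 for the Id genes, 0.16 for the type II and III receptors, 0.14 for the BMP and GDF ligands and 0.09 for the TGF-beta and activin ligands. It was 0.02 for the latent TGF-beta binding proteins, 0.01 for the secreted antagonists, 0.00 for the Smads and -0.01 for the type I receptors.

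Each hybridisation day was also read on its own, as a difference of group means without a term for sex. On day 2 all 3 Tam-Idh1-KI mice were female, against 1 of the 3 controls. Genotype and sex are therefore hard to tell apart on that day. The difference between genotypes had the same sign on both days in 20 of the 37 genes (54.1%), against 57.3% of all genes. For *Id1* it was 0.32 on day 1 and 0.17 on day 2, for *Tgfbr2* 0.30 and 0.43, and for *Id3* 0.21 and 0.39. On day 2, where *Id1* was 8.68 to 8.86 in Tam-Idh1-KI and 8.57 to 8.60 in control SVZ, its groups of 3 did not overlap. *Fst* (higher in Tam-Idh1-KI) and *Smad1* (lower) also did not overlap on that day, in all 3 of 37 genes (8.11%), against 13% of all genes. On day 1 the groups of 6 overlapped in all 37 genes, while 0.384% of all genes did not overlap there. No member had an adjusted p under 0.05 for an interaction of genotype with day by limma, and over all genes the share called was 0%. At an unadjusted p under 0.05 stood 0 of the 37 genes, against 2.90% of all genes (332 of 11465).

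**Figure D4:**
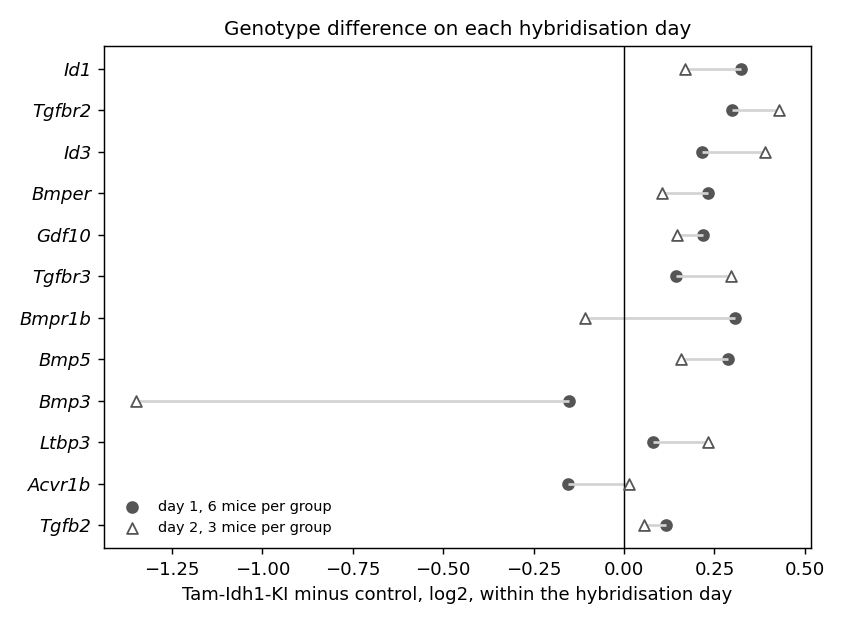
Difference of Tam-Idh1-KI minus control (x axis, log2) on hybridisation day 1 (filled circles, 6 mice per group) and day 2 (open triangles, 3 per group) for the 12 measured genes with the smallest p, in that order from the top. Of the 12 genes 10 keep their sign, and Bmpr1b (0.31 and -0.11) and Acvr1b (-0.16 and 0.01) do not.

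The pathway genes, like most genes on these arrays, differed more between hybridisation days than between genotypes. On day 2, the day of the older mice, 25 of the 37 genes (67.6%) differed from day 1 at an adjusted p under 0.05 by limma, 18 higher (48.6%) and 7 lower (18.9%). Over all genes the shares were 63.8% in all, 36.8% higher and 27% lower, so that a day difference is the rule on these arrays. With age as a further term 13 of the 37 genes (35.1%) differed between days, against 45.5% of all genes.

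Among the receptors, 6 of 6 type II and III receptors and co-receptors and 3 of 5 type I receptors were higher on day 2, and *Acvr1b* was lower. *Bmpr1a* was 1.27 higher on the log2 scale (SE 0.10, adjusted p = 3.26e-08 by limma), and *Acvr1* 0.65 higher (SE 0.08, adjusted p = 3.18e-06 by limma). *Tgfb2* was 0.93 higher (SE 0.08, adjusted p = 3.18e-08), *Smad3* 0.90 higher (SE 0.07, adjusted p = 1.70e-08) and *Smad1* 0.72 higher (SE 0.09, adjusted p = 4.39e-06). *Ltbp4* was lower, at -1.10 (SE 0.11, adjusted p = 3.05e-07), as were *Bmp4* (-0.79), *Tgfb1* (-0.77), *Fst* (-0.88), *Acvr1b* (-0.61), *Id3* (-0.53) and *Fstl1* (-0.33). *Tgfbr2* was 0.47 higher on day 2 while *Id1* differed by 0.16 (SE 0.12, adjusted p = 0.255 by limma). The day difference was larger in absolute size than the genotype difference in 29 of the 37 genes, with medians of 0.47 for day and 0.09 for genotype. Over all genes this held for 9746 of 11465, with medians of 0.41 for day and 0.08 for genotype. Whether the arrays, the age of the mice or another feature of the day moved these genes cannot be told apart.

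**Figure D5:**
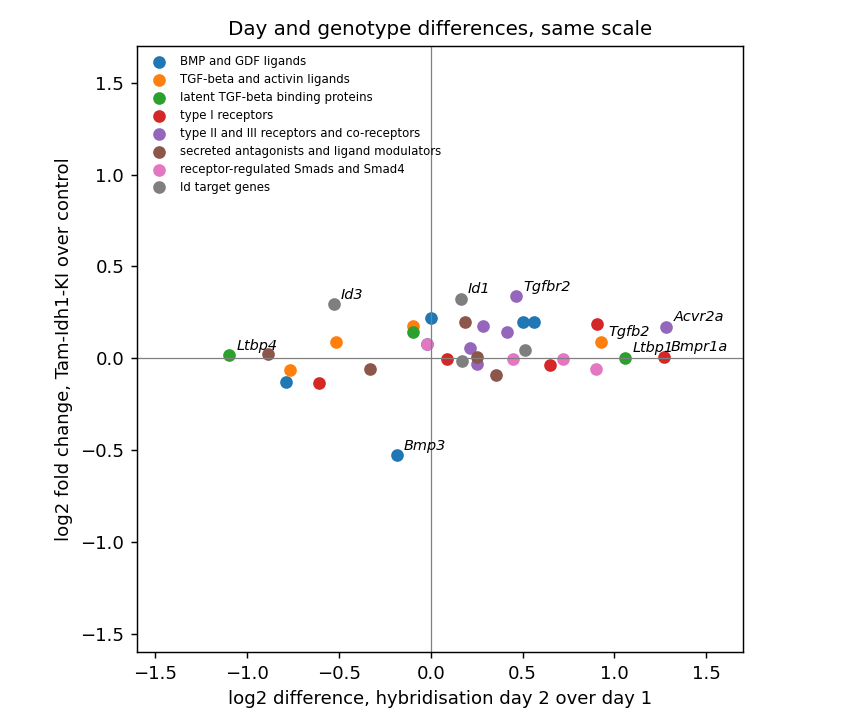
Log2 difference between hybridisation days, day 2 over day 1 (x axis), and log2 fold change of Tam-Idh1-KI over control (y axis) for the 37 measured genes, coloured by role and drawn on the same scale. The points spread between -1.10 and 1.28 along the day axis and between -0.53 and 0.34 along the genotype axis.

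Females and males did not differ by a call in the set. No member passed an adjusted p of 0.05 between females and males by limma, against 0.0262% of all genes. At an unadjusted p under 0.05 there were 0 members, against 3.42% of all genes. The smallest unadjusted p was 0.0575, for *Fstl1*, at 0.22 higher in females on the log2 scale. For an interaction of genotype with sex no member passed by limma, against 0.00872% of all genes, and *Ltbp3* alone had an unadjusted p under 0.05 (difference of 0.43, SE 0.20, unadjusted p = 0.0446, adjusted p = 0.997), as 3.38% of all genes did (388 of 11465).

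Other genes of these pathways were read from a list of 87, of which 51 were measured. None of these 51 passed the adjusted threshold by limma, against 0.174% of all genes. At an unadjusted p under 0.05 by limma, 4 were higher and 3 lower. Over all genes 9.58% stood under it, and 6.44% were higher. Of the 51 genes 22 had a positive difference, against 54.4% of all genes. Their median was -0.02, beside 0.01 over all genes. *Cdkn2b*, a cell cycle inhibitor gene induced by TGF-beta in epithelial cells, came closest. Its log2 signal was 6.44, 6.74 and 8.04 in Tam-Idh1-KI SVZ and 5.55, 6.11 and 7.55 in control SVZ. The groups overlapped in their raw ranges, with all 9 Tam-Idh1-KI mice above the control mean of their day, and the log2 fold change was 0.59 (SE 0.12; limma, unadjusted p = 0.000131, adjusted p = 0.0643). It passed the threshold without Tam-Idh1-KI replicate 7 (adjusted p = 0.0333 by limma) and without control replicate 3 (adjusted p = 0.00955). Its adjusted p was 0.163 without control replicate 2, 0.151 without control replicate 1 and 0.114 with the replicate block, and over all alternatives it ran between 0.00955 and 1.00.

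The next 3 genes of that list were a Smad corepressor and a pair of extracellular proteins. *Tgif1*, the corepressor gene, had a log2 fold change of 0.47 (SE 0.17; limma, unadjusted p = 0.0131, adjusted p = 0.368). *Sostdc1*, a BMP antagonist gene that also marks choroid plexus, stood at 0.27 (SE 0.12; limma, unadjusted p = 0.0377, adjusted p = 0.491), and *Bgn*, the gene of the matrix proteoglycan biglycan, at -0.37 (SE 0.16; limma, unadjusted p = 0.0378, adjusted p = 0.491).

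Markers of several SVZ cell types had positive differences, as *Id1*, *Id3* and *Tgfbr2* did. All 12 measured ependymal markers had a positive difference (median 0.34), with a mean level over the list of 8.59 to 9.77 in Tam-Idh1-KI and 8.66 to 9.23 in control SVZ. All 8 measured markers of transit amplifying cells and neuroblasts were positive as well (median 0.25), at 8.83 to 9.84 in Tam-Idh1-KI and 8.70 to 9.34 in control SVZ. Of the endothelial markers 9 of 10 were positive with a median of 0.07, at 7.98 to 8.56 in Tam-Idh1-KI and 7.91 to 8.40 in control SVZ. No gene of these 3 lists passed the adjusted threshold by limma, though 7, 5 and 1 of them were higher at an unadjusted p under 0.05. Of all genes 6.44% were higher at that unadjusted threshold. So were 2 choroid plexus, 2 mural, 1 oligodendrocyte and 1 meningeal or fibroblast-like marker. Of the astrocyte and stem cell markers 2 were higher and 2 lower, and no microglial, neuronal or erythrocyte marker stood under it. Of the mural markers 4 of 8 were positive, at 7.24 to 7.69 in Tam-Idh1-KI and 7.34 to 7.64 in control SVZ, and of the choroid plexus markers 2 of 7, at 7.54 to 8.66 in Tam-Idh1-KI and 7.68 to 8.17 in control SVZ. Of the oligodendrocyte markers 5 of 5 were positive (median 0.22), at 10.997 to 12.67 in Tam-Idh1-KI and 10.68 to 12.24 in control SVZ, of the microglial markers 7 of 8 (median 0.07), and of the astrocyte and stem cell markers 7 of 12 (median 0.03). Neuronal markers were positive in 3 of 9 genes (median -0.05), at 12.11 to 12.42 in Tam-Idh1-KI and 12.33 to 12.65 in control SVZ. The neuronal marker *Slc17a7* spread widely between mice, from 6.88 to 12.76 in Tam-Idh1-KI and from 9.07 to 12.04 in control SVZ. Its log2 fold change was -1.14 (SE 0.57; limma, unadjusted p = 0.0615, adjusted p = 0.557). How much neighbouring tissue each dissection held was not tested. Erythrocyte markers were positive in 0 of 4 (median -0.21), at 11.11 to 12.15 in Tam-Idh1-KI and 11.36 to 12.61 in control SVZ, and meningeal and fibroblast-like markers in 3 of 5 (median 0.06), at 6.71 to 8.16 in Tam-Idh1-KI and 6.98 to 7.83 in control SVZ. The part of these cell types in the values of *Id1*, *Id3* and *Tgfbr2* was not tested.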

How the data were processed

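Total RNA of dissected SVZ from 18 mice was measured on 18 arrays. The authors deposited for each probe and array the bead signal, an intensity on a linear scale with no normalization, and a detection p-value against negative control beads. A second deposited table gives log2 values that the authors had processed (column medians 6.22 to 6.30, no centring by gene, normalization unknown), which served as an alternative. GenomeStudio is named in the submitters' processing notes, with no version stated in the sources used here. Every column of a sample was used.

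With limma 3.58.1 in R 4.3.3 the signals were background corrected by normexp from the detection p-values, given an offset of 16, quantile normalized and put on the log2 scale. Of 45281 probes, the platform annotation gives 34885 a single symbol, 18 more than 1 and 10378 none. Entrez IDs matched 34807 of them to RefSeq genes, which changed 0 symbols. The detection rule (p under 0.05 on 9 or more arrays) left 21644 probes, 18460 of them with a single symbol, and 11465 genes were each read from their brightest probe. Of the members 14 had more than 1 kept probe, whose differences between genotypes had 1 sign in 6 genes and both signs in 8. The linear model (lmFit, eBayes) had terms for genotype, day of hybridisation and sex; all tests were two-sided and adjusted over all genes tested (Benjamini-Hochberg, 0.05). Only the model fit and the adjustment were tested on simulated data. Background correction, normalization, the detection rule and the choice of probe were not part of that test. Replicates are mice, and litters are not named in the labels.

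The pathway genes and the lists were chosen with earlier results of these data known. Named in full are the 12 measured members with the smallest p, the member with the largest absolute difference in each role, and up to 6 members past the threshold for day, sex or an interaction; of the other pathway genes the 4 with the smallest p are named. Further genes were named after their values were seen. The replicate numbers run from 1 to 9 in both groups, and littermate controls are described. Deviations from the group mean correlated over 0.1 between arrays of the same number in 9 of 9 pairs (mean 0.483). All 9 pairs also share the day, and after centring on it 4 of 9 did so (mean 0.05). The fit with the replicate number as a block is therefore an alternative. Alternatives also covered background correction, scaling, detection filter, choice of probe, model terms, weights for arrays, either day alone, leaving out each array and the methods' t-test. The fit of day 2 alone had no term for sex. Upstream windows came from RefSeq, for 30 of 37 measured members; *Bmp3*, *Bmp7*, *Tgfb3*, *Tgfbr3*, *Fst*, *Smad2* and *Id1* had none.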

Additional observations from a re-analysis of the deposited data

Results flagged for a closer look

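In the group of 9 Tam-Idh1-KI mice, the *Bmper* value of replicate 1, a log2 signal of 8.27, lay far from the others: the next lowest was 8.58 and the highest 8.85, so that its gap was 0.540 of the whole range, above Dixon's 95% critical value for 9 samples. It was the only value so marked among 74 groups (37 genes in 2 genotypes). Chance marks about 1 in 20 groups where no shift lies within a group. The values were not centred on the hybridisation day, and 25 of the 37 genes differed between days. A day difference widens the range, so a group left unmarked can still hold an outlying value. Without Tam-Idh1-KI replicate 1 the log2 fold change of *Bmper* was 0.26.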

How the results depend on the processing

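No BMP or TGF-beta gene passed the adjusted threshold in any of the 34 alternatives, the smallest adjusted p being 0.0655, for *Id1* with array weights (range over its alternatives by limma or the methods' t-test up to 1.00). *Id1*, *Id3* and *Tgfbr2* kept a positive difference in all 34, at 0.17 to 0.44, 0.21 to 0.42 and 0.28 to 0.46, with an unadjusted p under 0.05 in 32, 23 and 33 of them. Of the 37 members 16 kept their sign throughout and 21 did not. The number of members at an unadjusted p under 0.05 was 6 with median scaling and with array weights, 1 on day 1 alone (*Tgfbr2*) and 1 on day 2 alone (*Bmp3*), and 2 to 5 without 1 array. Their median log2 fold change was 0.15 with median scaling, which also moved the median of all genes to 0.12, a gap of 0.04 beside 0.03 with quantile normalization, and 0.01 to 0.07 without 1 array. Over all genes the count past the threshold was 8 without covariates, 80 with array weights, 4 on day 1 alone, 0 on day 2 alone (by limma, 8.34% of genes at an unadjusted p under 0.05) and 3 by the methods' t-test. It was 4 to 39 without 1 array, namely 4 (control replicate 1 or 8 left out), 6 (control 2), 8 (control 5 or Tam-Idh1-KI 4), 9 (Tam-Idh1-KI 3), 10 (Tam-Idh1-KI 2), 12 (control 6), 13 (control 7 or Tam-Idh1-KI 9) and 39 (Tam-Idh1-KI 6) where it moved most. With the replicate block it was 9, and the block changed no call of a member. Calls higher and lower were 16 and 7 with median scaling and 6 and 8 with cyclic loess. With age as a term 13 members passed for day, against 45.5% of all genes. *Cdkn2b*, alone among the other pathway genes, passed (a count of 1) with median scaling, with array weights and without Tam-Idh1-KI replicate 7 or control replicate 3, so that without 1 array the count was 0 to 1; its adjusted p ran between 0.00955 and 1.00 over the alternatives. The causes of these shifts were not tested. *Bmp3*, *Bmp5*, *Bmp6*, *Tgfb1*, *Ltbp1* and *Acvr2a*, detected on 10 to 16 arrays, were below the detection limit on the others.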
